A study of Mus musculus with 2 samples.

Results

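Class-switched plasma cells of the mouse omentum made up 262 of 14414 cells in a droplet-based single-cell RNA sequencing experiment, 74 of the 8680 cells of wild-type (WT) mice and 188 of the 5734 cells of *Postn*-DTR mice. They are antibody-secreting cells whose leading heavy chain was IgA or an IgG and not IgM. A cell was counted when it had 200 to 7500 detected genes, at least 50 *Jchain* UMIs per 10000, any *Xbp1* and any *Mzb1*, where a UMI (unique molecular identifier) marks 1 captured transcript. It also had to show fewer than 2 of the 4 cycling genes *Mki67*, *Top2a*, *Ube2c* and *Birc5*, and the highest of the 6 heavy-chain constant genes *Ighm*, *Igha*, *Ighg1*, *Ighg2b*, *Ighg2c* and *Ighg3* had to be another gene than *Ighm*. The cells were chosen by the measured values of these genes, whose levels, like the isotypes, are therefore given as a description. The working name of IgA and IgG plasma cells did not match the make-up of the cells well, because IgA led in 12 WT and 5 *Postn*-DTR cells and 189 of the 262 cells were IgG3.

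Both libraries came from omenta taken 5 days after diphtheria toxin (DT) was injected, with 3 mice pooled in each. WT mice carried no toxin receptor, and *Postn*-DTR mice were heterozygous for a receptor placed in the *Postn* gene, so that DT can kill any cell that uses the *Postn* promoter. The study built this model to ask what the loss of *Aldh1a2*+ fibroblastic reticular cells, stromal cells of the omental lymphoid clusters called milky spots, does to the leukocytes there. The labels gave neither age nor strain. With 1 library per group there was no replicate, so nothing was tested between WT and *Postn*-DTR. All intervals are 95% intervals that cover counting error only. Because the mice were pooled, the cells of single mice cannot be told apart.

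Plasma cells are the end stage of B cells and secrete antibody at a high rate, driven by *Xbp1* and *Prdm1*, with the J chain joining IgM and IgA into polymers. Class switching cuts the DNA between constant genes, so that the same variable (V) region is passed from IgM to an IgG or to IgA and the cell cannot return to IgM. The omentum and the peritoneal cavity are known for B1 cells, which make natural IgM and switch to IgG3 and IgA, while IgG1 is known from responses helped by T cells.

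The libraries held 80175477 (WT) and 81027315 (*Postn*-DTR) UMIs, and switched plasma cells were among their deepest cells, with medians of 33686 (1845 to 76676) and 23437.5 (1052 to 62198) UMIs per cell. Immunoglobulin transcripts took a median of 59.0% and 56.8% of their UMIs, and mitochondrial transcripts 0.860% and 0.745%. *Postn* was found in 34 WT cells (0.392%) and 8 *Postn*-DTR cells (0.140%), and in 0 of the 74 and 0 of the 188 switched cells. Where a count was 0, the limit given is 3 over the number of cells and not the exact interval. Here it allows shares of cells with a *Postn* UMI of up to 4.05% and 1.60%. The libraries shared 65 barcodes, none of them between switched cells of both libraries. Scrublet called 0 of 74 and 6 of 188 switched cells (3.19%) doublets, against 1.35% and 1.52% of all cells. Free antibody RNA was present in both libraries: of T cells, which should lack these genes (median 4838 and 4742 UMIs per cell), 67.3% and 82.0% held an *Ighm* UMI and 7.09% and 18.9% an *Ighg3* UMI.

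The antibody genes themselves define these cells, and 2 heavy-chain and 2 light-chain V segments led most of them. They are shown because nearly all IgG3 cells led with the first pair (*Ighv1-11* and *Igkv8-16*) and nearly all IgG1 cells with the second (*Ighv1-26* and *Igkv9-120*). The last 300 bases of each coding sequence are those of GENCODE for GRCm38, the same assembly as mm10, and capitals mark bases that differ from the most similar other V gene listed in the files. That gene was *Ighv1-61* for *Ighv1-11* (81.0% identity), *Ighv1-18* for *Ighv1-26* (96.9%), *Igkv8-34* for *Igkv8-16* (81.3%) and *Igkv9-124* for *Igkv9-120* (95.2%). With the span of the whole gene in parentheses, *Ighv1-11* (chr12:114612243-114612675, minus strand) and *Igkv8-16* (chr6:70386672-70387252, minus strand) have no close copy among the listed genes, whereas *Ighv1-26* (chr12:114788372-114788805, minus strand) and *Igkv9-120* (chr6:68049983-68050456, plus strand) each have one, and reads could have been shared with it.
Ighv1-11: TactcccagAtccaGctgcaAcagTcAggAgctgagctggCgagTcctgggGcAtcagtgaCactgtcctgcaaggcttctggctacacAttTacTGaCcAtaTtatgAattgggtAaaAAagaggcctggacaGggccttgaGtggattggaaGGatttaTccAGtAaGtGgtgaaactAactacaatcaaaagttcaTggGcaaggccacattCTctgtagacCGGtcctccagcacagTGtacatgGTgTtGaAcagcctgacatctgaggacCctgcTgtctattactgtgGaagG
Igkv8-16: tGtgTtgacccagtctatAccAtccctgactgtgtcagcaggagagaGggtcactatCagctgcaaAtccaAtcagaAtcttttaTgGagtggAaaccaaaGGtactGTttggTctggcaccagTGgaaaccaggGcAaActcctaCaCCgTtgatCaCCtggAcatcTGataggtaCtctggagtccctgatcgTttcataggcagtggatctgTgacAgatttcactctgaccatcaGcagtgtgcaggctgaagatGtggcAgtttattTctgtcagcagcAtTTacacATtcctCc
Ighv1-26: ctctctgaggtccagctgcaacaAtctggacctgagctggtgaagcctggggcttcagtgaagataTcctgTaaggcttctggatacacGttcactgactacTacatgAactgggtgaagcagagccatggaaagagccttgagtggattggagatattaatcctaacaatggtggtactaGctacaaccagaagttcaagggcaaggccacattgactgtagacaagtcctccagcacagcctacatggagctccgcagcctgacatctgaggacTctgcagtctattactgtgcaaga
Igkv9-120: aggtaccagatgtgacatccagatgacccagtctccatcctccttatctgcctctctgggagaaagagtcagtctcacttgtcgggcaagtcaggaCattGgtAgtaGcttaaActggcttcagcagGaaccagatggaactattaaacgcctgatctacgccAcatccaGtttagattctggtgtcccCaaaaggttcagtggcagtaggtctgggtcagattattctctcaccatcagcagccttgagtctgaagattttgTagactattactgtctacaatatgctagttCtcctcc

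The isotype was read from the constant genes, which lie in a row on the minus strand of chromosome 12 in the order *Ighm* (113418558 to 113422730), *Ighg3* (113356224 to 113361232), *Ighg1* (113325240 to 113330523), *Ighg2b* (113302965 to 113307933), *Ighg2c* (113285325 to 113288932) and *Igha* (113254830 to 113260236). The first 60 bases of the annotated transcripts, next to the joined V region, are shown for the 4 isotypes the results turn on, with capitals where a base differs from *Ighg3*. Over whole transcripts *Ighg3* and *Ighg1* were 73.6% identical, and the closest pair of constant genes was *Ighg2b* and *Ighg2c* at 78.5%. The annotated *Ighg2c* transcript has 1214 bases, 3 of them untranslated, and that of *Ighg2b* 1114, 107 of them untranslated. The 78.5% thus also sets unlike parts against each other.
Ighm: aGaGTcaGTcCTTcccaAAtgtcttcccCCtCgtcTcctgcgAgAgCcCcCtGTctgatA
Ighg3: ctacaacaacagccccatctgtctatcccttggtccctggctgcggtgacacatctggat
Ighg1: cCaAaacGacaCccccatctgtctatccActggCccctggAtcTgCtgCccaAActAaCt
Igha: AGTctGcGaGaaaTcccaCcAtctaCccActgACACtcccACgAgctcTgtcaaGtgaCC

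Switched plasma cells took a larger share of the *Postn*-DTR library. They were 0.853% of WT cells (74 of 8680, exact Clopper-Pearson interval 0.670 to 1.07%) and 3.28% of *Postn*-DTR cells (188 of 5734, 2.83 to 3.77%), a ratio of 3.85 (Katz log interval 2.94 to 5.02). IgM plasma cells passing the same limits were 5.26% (457) and 27.0% (1546) of cells, a ratio of 5.12 (4.64 to 5.65). Among all non-cycling antibody-secreting cells, switched cells were 13.9% in WT (11.1 to 17.2%) and 10.8% in *Postn*-DTR (9.42 to 12.4%), a ratio of 0.778 (0.605 to 0.9997). *Jchain*, which the rule requires, was lower in switched than in IgM plasma cells, with medians of 199 and 489 in WT and 115 and 277 in *Postn*-DTR. The *Postn*-DTR share changed with the *Jchain* limit, as given with the processing below. Thus the number of switched cells per library differed in the same direction as that of IgM plasma cells. Shares of a library also depend on how many other cells it holds, and fewer T and B cells cannot be told apart from more plasma cells.

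The isotypes did not differ alike between the libraries. IgG3 cells were 0.668% of WT cells (58) and 2.28% of *Postn*-DTR cells (131), a ratio of 3.42 (2.51 to 4.65). Non-cycling IgG1 cells were 0 of 8680 WT cells, which allows a share of up to 0.0346%, and were 0.715% of *Postn*-DTR cells (41, 0.514 to 0.969%). IgG2b led in 1 WT cell and 10 *Postn*-DTR cells, with an interval of the ratio from 1.94 to 118, and IgG2c in 3 and 1 cells. IgG2c and IgA had ratios below 1. The ratio of IgG2c was 0.505 (0.0525 to 4.85), and IgA was at 0.138% of WT cells (12) and 0.0872% of *Postn*-DTR cells (5), a ratio of 0.631 with an interval (0.222 to 1.79) that holds values above and below 1. Within switched cells IgA therefore made up 16.2% in WT (8.67 to 26.6%) and 2.66% in *Postn*-DTR (0.869 to 6.10%), and IgG1 made up 21.8% of the *Postn*-DTR cells against 0 of 74 in WT (up to 4.05%).

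**Figure D1:**
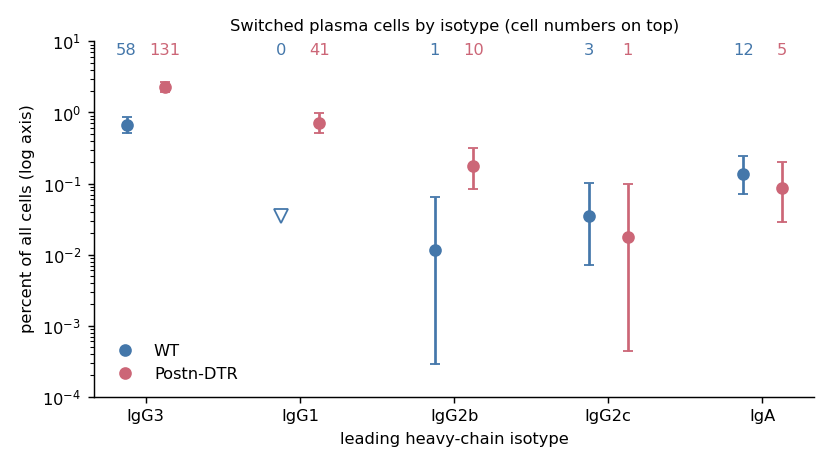
Switched plasma cells of each isotype as a percent of all cells (log axis) in WT and *Postn*-DTR, with exact 95% intervals for counting error and cell numbers on top. The open triangle is the limit that 0 IgG1 cells allow in WT (0.0346%), and the *Postn*-DTR point lies above the WT point for IgG3, IgG1 and IgG2b but not for IgG2c and IgA.

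Cycling antibody-secreting cells, which the rule left out, held IgG1 cells in number in *Postn*-DTR as well. Of 62 such cells in WT 15 were switched, 7 of them IgA, 1 IgG1, 2 IgG2b and 5 IgG3. Of 313 in *Postn*-DTR 50 were switched, 20 of them IgG1, 19 IgG3, 5 IgA, 5 IgG2c and 1 IgG2b. IgG1 thus led in 40.0% (26.4 to 54.8%) of cycling switched cells in *Postn*-DTR. Cycling cells were 21.0% of all switched antibody-secreting cells in *Postn*-DTR (16.01 to 26.7%) and 16.9% in WT (9.75 to 26.3%).

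The heavy chain that sorted cells into switched and IgM is described here and supports no comparison. The leading switched chain had medians of 611 (WT) and 533 (*Postn*-DTR) UMIs per 10000, while *Ighm* in the same cells had medians of 6.67 and 3.76 against 511 and 464 in IgM plasma cells. The lead held under 80% of the heavy-chain UMIs in 16 WT cells (21.6%) and 19 *Postn*-DTR cells (10.1%). These cells were deeper (median 54949.5 and 43690 UMIs) than the rest (32159.5 and 22489), and a second heavy-chain V gene took 14.6% and 23.9% of their heavy-chain V UMIs against 0.0211% and 0.302% in the rest. Whether they hold 2 cells per droplet was not tested beyond the doublet calls given above. At the edge of the rule the lowest *Jchain* values inside were 52.4 in WT and 50.1 in *Postn*-DTR, the highest outside were 49.4 and 49.6, and 6 WT and 38 *Postn*-DTR cells that passed all else had 25 to 50. The smallest ratio of the leading chain to *Ighm* was 1.02 in WT and 1.04 in *Postn*-DTR, and the largest in IgM cells was 0.822 and 0.894.

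**Figure D2:**
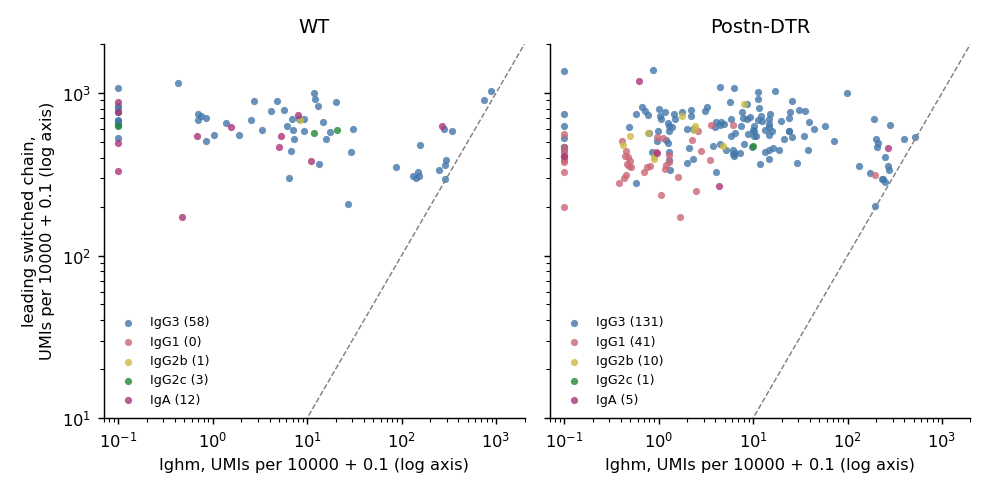
Leading switched heavy chain against *Ighm* in each switched plasma cell (UMIs per 10000 with 0.1 added, log axes), coloured by isotype, for WT (74 cells) and *Postn*-DTR (188 cells). Cells on the dashed line have equal levels. The 16 WT and 19 *Postn*-DTR cells whose lead holds under 80% of the heavy chain lie mostly toward the right and close to that line. Some of them hold another switched chain and little *Ighm*, such as a *Postn*-DTR IgG1 cell with *Ighm* at 1.58.

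V segments, which the rule did not use, were counted in each isotype. In a cell the leading pair is the heavy and the light V gene with most UMIs, and since the files give no junction sequence, cells sharing a pair need not be 1 clone. *Ighv1-11* with *Igkv8-16* led in 52 of 58 WT IgG3 cells (89.7%, 78.8 to 96.1%) and in 119 of 131 *Postn*-DTR IgG3 cells (90.8%, 84.5 to 95.2%). The same pair led in 7 of the 10 *Postn*-DTR IgG2b cells. *Ighv1-11* with any light chain led in 57 of 58 and 129 of 131 IgG3 cells. The next leading pair in IgG3 was *Ighv1-11* with *Igkv14-126* (4 and 8 cells). It was clear (3 or more UMIs and 2 times the next V gene) in only 1 of these WT and 6 of these *Postn*-DTR cells. *Ighg3* held 50.6 to 80.1% of the heavy chain in these WT cells and 49.6 to 73.0% in these *Postn*-DTR cells. Whether they hold 2 cells per droplet was not tested. The share of the leading pair in IgG3 cells had a ratio of 1.01 between the libraries (0.914 to 1.12), while the share of IgG3 cells among all cells had a ratio of 3.42.

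IgG1 cells led with another pair. *Ighv1-26* with *Igkv9-120* led in 39 of 41 *Postn*-DTR IgG1 cells (95.1%, 83.5 to 99.4%) and in 1 of 1546 *Postn*-DTR IgM plasma cells, and in none of the other switched cells. The 3 WT IgG2c cells all led with *Ighv1-80* and *Igkv4-55*. IgA cells had 12 different pairs in 12 WT cells and 5 in 5 *Postn*-DTR cells, and 1 of the latter shared its pair (*Ighv1-75* with *Igkv5-39*) with 2 *Postn*-DTR IgG3 cells. Lambda light chains led in 0 of 74 WT cells (up to 4.05%) and 2 of 188 *Postn*-DTR cells (1.06%), both of them IgA cells with *Iglv1* leading.

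The IgM plasma cells shared one of these pairs with the switched cells and not another. *Ighv1-11* with *Igkv8-16* led in 80 of 457 WT (17.5%) and 593 of 1546 *Postn*-DTR (38.4%) IgM plasma cells, a ratio of 2.19 (1.78 to 2.70). In other B cells with at least 2 UMIs of a heavy and of a light V gene, this pair led in 1.11% (26) and 6.69% (55). *Ighv11-2* with *Igkv14-126*, a pair known from B1a cells, led in 41.4% (189) and 40.0% (619) of IgM plasma cells. Of non-cycling antibody-secreting cells with *Ighv11-2* and *Igkv14-126*, 0 of 189 in WT (up to 1.59%) and 1 of 620 in *Postn*-DTR (0.161%) were switched. In that 1 cell *Ighg1* held 61.6% of the heavy chain, and the V pair was not clear. Of non-cycling antibody-secreting cells with *Ighv1-11* and *Igkv8-16*, 39.4% were switched in WT (52 of 132, 31.0 to 48.3%). In *Postn*-DTR 17.5% were switched (126 of 719, 14.8 to 20.5%), a ratio of 0.445 (0.341 to 0.579). Both kinds of cells with this pair that passed the rule were thus more numerous in *Postn*-DTR, the switched ones less so than the IgM ones. *Jchain*, which the rule requires, had medians of 161 in WT and 93.6 in *Postn*-DTR IgG3 cells with this pair. In IgM cells with this pair they were 610 and 312. Whether the *Jchain* limit had a part in these shares was not tested. *Ighv1-11* was also present in free RNA, as 23.7% of WT and 84.1% of *Postn*-DTR T cells held a UMI of it. Its means in T cells were 0.903 and 5.95 UMIs per 10000, against 1759 and 2049 in switched cells. *Ighv11-2* and *Igkv14-126* were not measured in T cells.

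**Figure D3:**
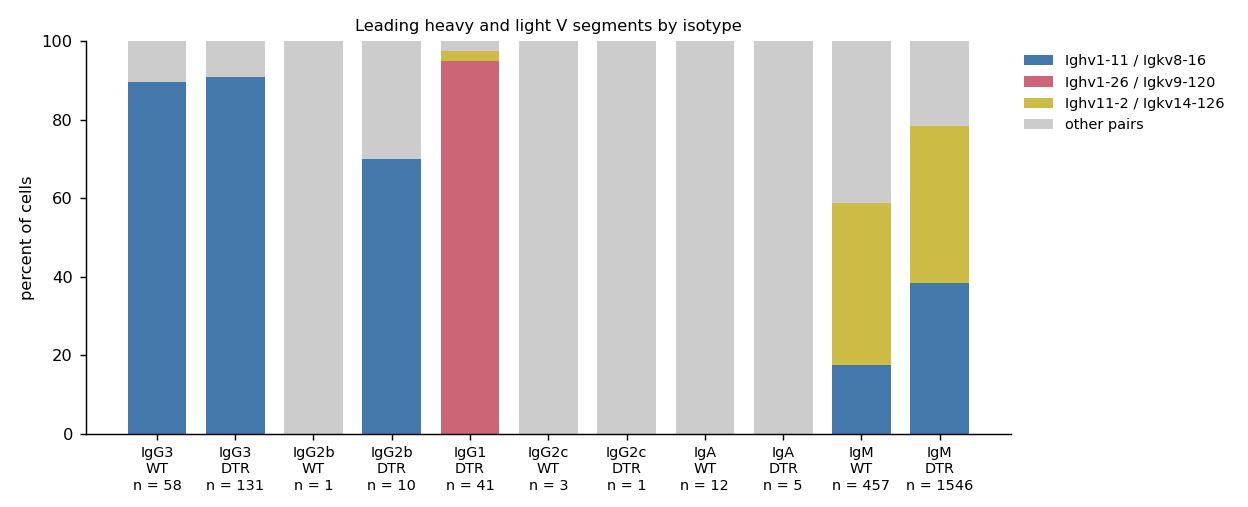
Share of cells with each leading heavy and light V pair, by isotype and library, for switched and IgM plasma cells (cell numbers under the bars). IgG3 bars are mostly *Ighv1-11* with *Igkv8-16* in both libraries (89.7% and 90.8%), the *Postn*-DTR IgG1 bar is 95.1% *Ighv1-26* with *Igkv9-120*, and IgA bars hold none of the 3 named pairs.

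The marker genes of plasma cells were present in both libraries. *Jchain*, whose product joins polymeric antibody, had a median of 199 UMIs per 10000 in WT (52.4 to 957) and 115 in *Postn*-DTR (50.1 to 544), below IgM plasma cells (489 and 277). It was 537 and 425 in IgA cells, 161 and 93.6 in IgG3 cells with *Ighv1-11* and *Igkv8-16*, 143 in IgG1 cells and 107 in the 3 WT IgG2c cells. *Xbp1*, the transcription factor of the secretory program, had medians of 17.0 and 25.7, and *Mzb1*, a chaperone of antibody assembly, 45.0 and 58.9. Markers the rule did not use were found as well: *Sdc1*, the plasma cell surface proteoglycan CD138, had means of 1.70 and 1.41, *Prdm1*, the regulator that shuts off the B cell program, 0.97 and 0.67, and *Irf4* 1.94 and 2.59. The last 3 stayed within 2-fold, while *Tnfrsf17*, another marker outside the rule, was lower in *Postn*-DTR by 2-fold or more (log2 ratio -1.77), and the median over these 4 was -0.38. Of the label's own markers *Igha* was at 0 in the median cell of both libraries, as was *Ighg2b*.

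Gene levels were compared next, as means over cells of UMIs per 10000 with 0.05 added, over 3745 genes with at least 100 UMIs in switched cells. Between *Postn*-DTR and WT, 92 genes (2.46% of those compared) were higher and 97 (2.59%) lower by 2-fold or more, and the median log2 ratio over all genes was 0.13. Centred on that median the counts were 61 and 143. The make-up of isotypes differs between the libraries, so that values are also given for IgG3 cells with *Ighv1-11* and *Igkv8-16* alone (52 and 119 cells), in which 137 genes (3.66%) were higher and 144 (3.85%) lower. Values for IgM plasma cells with the same pair (80 and 593 cells, 4.35% of genes higher and 2.3% lower) stand beside them. Over all IgM plasma cells 76 genes (2.03%) were higher and 47 (1.26%) lower. The genes named are the 12 highest and 12 lowest by a rule given with the processing.

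*Sbno2*, a transcriptional co-regulator known from interleukin-10 responses, led the higher genes. Its mean level was 0.17 UMIs per 10000 in WT cells against 3.05 in those of *Postn*-DTR mice, a log2 ratio of 3.81, and the log2 ratio of summed UMIs was 4.79 (interval 4.28 to 5.41). In IgG3 cells with *Ighv1-11* and *Igkv8-16* a *Sbno2* UMI was found in 10 of 52 WT cells, with a highest value of 5.42, and in 87 of 119 *Postn*-DTR cells, with a median of 2.17 and a highest value of 42.8. The ranges thus overlapped, but most WT cells were at 0. With 73 WT and 187 *Postn*-DTR cells thinned to 2000 UMIs, which left out 1 shallower cell in each library, the share with a *Sbno2* UMI was 1.37% in WT and 31.0% in *Postn*-DTR, against 23.0% and 60.6% unthinned and 13.3% and 19.3% of T cells. Levels of *Sbno2* varied within the *Postn*-DTR library: the mean was 4.24 in these IgG3 cells, 0.26 in the 7 IgG2b cells with the pair and 0.11 in IgG1 cells. In IgM plasma cells the mean was 0.05 in WT and 3.99 in *Postn*-DTR with the same pair, and 0.08 and 0.82 with *Ighv11-2* and *Igkv14-126*. Of the 5 IgA cells 2 held it, 1 of them at 13.1.

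Other named genes were higher in *Postn*-DTR switched cells as well. *Fads2*, a fatty acid desaturase, had means of 0.14 and 0.88 (log2 ratio 2.32), and in *Postn*-DTR cells it was 1.31 in IgG3 cells with *Ighv1-11* and *Igkv8-16*, 0.37 in IgM cells with that pair and 0.08 in IgG1 cells. *Ovol3*, a zinc finger gene, had means of 0.0308 and 0.505 (2.78). *Zbp1*, an interferon-induced sensor of nucleic acids, had means of 0.70 and 2.53 (1.78), and within *Postn*-DTR it was 3.27 in IgG3 cells with *Ighv1-11* and *Igkv8-16*, 1.04 in IgG1 cells and 0.62 in IgA cells. Of the remaining genes, *Tg* (1.99), *Hk2*, a hexokinase (1.70), *Mef2b*, a transcription factor of germinal center B cells (1.65), *Ada*, adenosine deaminase (1.63), and *Syngr2*, a vesicle protein (1.63), were also above 0 in IgG3 and IgM cells with *Ighv1-11* and *Igkv8-16*. Within *Postn*-DTR *Syngr2* had a mean of 3.06 in IgG1 and 1.28 in IgG3 cells, and *Ada* of 1.32 and 1.44.

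*Rbm3* and *Ctsz* were higher in *Postn*-DTR IgM plasma cells and B cells as well. *Rbm3*, an RNA-binding protein induced by cold, had a median of 1.66 (0 to 5.84) in WT switched cells against 6.56 (0 to 17.9) in those of *Postn*-DTR, and the log2 ratio of means was 1.62. In T cells, B cells and every class of IgM plasma cells its mean was also higher in *Postn*-DTR, for T cells at 15.2 against 7.002. *Ctsz*, a lysosomal protease, had medians of 1.06 (0 to 5.33) and 2.50 (0 to 56.7), with a log2 ratio of means of 1.63. *Rbm3* was found in 97.3% and 98.4% of switched cells and *Ctsz* in 94.6% and 97.3%, and after thinning to 2000 UMIs in 34.2% and 70.6% (*Rbm3*) and in 26.03% and 41.7% (*Ctsz*). In T cells the mean of *Ctsz* was 0.55 in WT and 0.63 in *Postn*-DTR. *Cxcr3* behaved in another way, since its log2 ratio of 1.71 over all switched cells became -0.37 in IgG3 cells with *Ighv1-11* and *Igkv8-16*, and the higher mean came from IgG1 cells.

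The named genes lower in *Postn*-DTR were led by *Ly6d*. This gene of a GPI-anchored lymphocyte antigen had a median of 7.31 (0 to 33.0) in WT switched cells against 0.434 (0 to 25.1) in the *Postn*-DTR ones. Means were 8.19 and 1.73 (log2 ratio -2.21, -1.89 in IgG3 and -1.91 in IgM cells with *Ighv1-11* and *Igkv8-16*). Over all IgM plasma cells the means were closer, at 10.2 and 6.08. After thinning to 2000 UMIs 63.0% of WT and 23.0% of *Postn*-DTR switched cells held a *Ly6d* UMI. Unthinned these were 91.9% and 54.3%, against 1.99% and 2.05% of T cells. Its relative *Ly6e* had means of 10.6 and 3.10 (-1.76). *Cd69*, an early activation antigen that holds lymphocytes in tissue (2.16 and 0.54), *Cd83*, an activation marker (0.71 and 0.13), *Il2rg*, the common cytokine receptor chain (0.98 and 0.20), and *Ltb*, lymphotoxin beta (0.40 and 0.06), were lower by log2 ratios of -1.90, -2.08, -2.06 and -2.10. So were *Plac8* (-2.16), *Crip1* (-2.10) and the actin *Actg1* (-1.78), and each of these genes was also below 0 in both groups of cells with *Ighv1-11* and *Igkv8-16*. *Dennd4a* (-1.88) was the exception among the 12, because its log2 ratio was 0.50 after thinning.

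*Tnfrsf17* and *Itgb7* were lower in *Postn*-DTR switched cells and, before thinning, higher in IgA than in IgG cells. *Tnfrsf17* encodes BCMA, the receptor for the survival factors APRIL and BAFF, and had means of 0.67 and 0.16 (log2 ratio -1.77). In IgG3 cells with *Ighv1-11* and *Igkv8-16* a *Tnfrsf17* UMI was found in 27 of 52 WT and 20 of 119 *Postn*-DTR cells (means 0.43 and 0.09), and in IgA cells in 11 of 12 and 5 of 5 (means 1.66 and 1.33). *Itgb7*, the beta7 subunit of integrins that direct lymphocytes to the gut, was found in 26 of 52 and 17 of 119 of those IgG3 cells and in 12 of 12 and 3 of 5 IgA cells. Both genes were thus lower within these IgG3 cells as well. Whether the isotype make-up had a part in the difference over all switched cells was not tested.

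**Figure D4:**
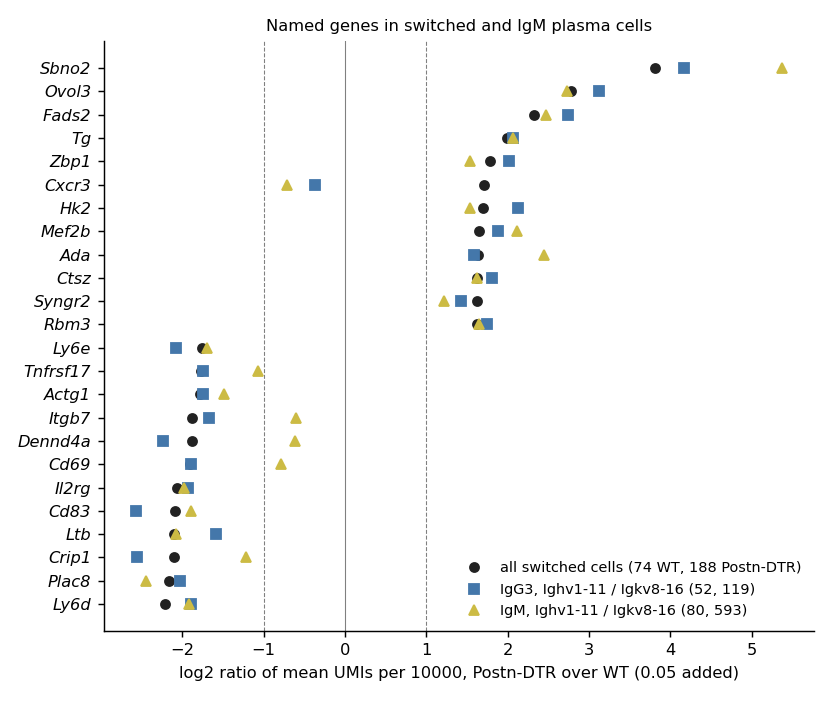
Log2 ratio of mean UMIs per 10000 (0.05 added) of *Postn*-DTR over WT for the 12 named genes with the highest and the 12 with the lowest ratio in switched plasma cells, with dashed lines at 2-fold. Circles are all switched cells, squares IgG3 and triangles IgM cells with *Ighv1-11* and *Igkv8-16*, and *Cxcr3* is the gene whose squares and triangles lie on the other side of 0 (-0.37 and -0.72).

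Gene lists were chosen with earlier results of these data known and are described by counts and medians, to be read against 2.46% of all genes higher, 2.59% lower and a median of 0.13. Of the 10 B cell identity genes compared 0 were higher and 3 lower by 2-fold (*Bank1*, *Cd74* and *H2-Aa*), all 10 were below 0 and their median log2 ratio was -0.84. *Cd74*, the invariant chain of MHC class II, had means of 50.6 and 22.7 and *H2-Aa* of 3.69 and 1.29. In IgG3 cells with *Ighv1-11* and *Igkv8-16* only *Cd74* was lower by 2-fold, against 3.85% of all genes, and the median was -0.55. In IgM cells with this pair all 10 were below 0 and 3 lower by 2-fold (*Ms4a1*, *Bank1* and *Cd74*), against 2.3% of all genes. Their median was -0.51, and over all IgM plasma cells it was -0.33 with 9 below 0. Over all switched cells, 0 of 31 genes of the secretory pathway and unfolded protein response passed 2-fold in either direction. Of these 22 were above 0 and the median was 0.38. Over all IgM plasma cells 24 were above 0 and the median was 0.33. In switched cells *Hspa5*, the main chaperone of the endoplasmic reticulum, had means of 23.7 and 32.8 and *Creld2* of 14.4 and 21.3. Among 16 plasma cell regulators and surface genes 0 were higher and 3 lower (*Tnfrsf17*, *Ly6a* and *Ly6d*), with a median of -0.18.

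Immediate early genes, which respond within minutes to stimulation and to tissue handling, were lower for 5 of 11 (*Fos*, *Fosb*, *Egr1*, *Ier2* and *Nr4a1*) and higher for 0, with a median of -0.95, against 2.59% of all genes lower and 2.46% higher. *Fosb* had means of 2.64 and 0.79, and *Fos* 4.62 and 1.73. In IgG3 cells with *Ighv1-11* and *Igkv8-16* 3 of 11 were lower (*Fos*, *Fosb* and *Egr1*), against 3.85% of all genes, and the median was -0.99. The same 3 genes were lower in IgM cells with this pair, against 2.3% of all genes, with a median of -0.08. Of 12 survival genes 2 were higher (*Bcl2l1*, which protects from apoptosis, and *Il10*) and 2 lower (*Tnfrsf17* and the kinase gene *Pim2*), with a median of -0.05. *Pim2* had means of 0.66 and 0.20, and *Il10*, an anti-inflammatory cytokine, 0.0683 and 0.235. In IgM cells with *Ighv1-11* and *Igkv8-16* 2 survival genes were higher (*Bcl2l1* and *Il10*) and 3 lower (*Tnfrsf17*, *Pim2* and *Cd28*). This stands against 4.35% and 2.3% of all genes, and the median was 0.58.

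Of 10 homing genes *Cxcr3* was higher and *Itgb7* lower, 8 were below 0 and the median was -0.21. In IgG3 cells with *Ighv1-11* and *Igkv8-16* 0 were higher and 3 lower (*Itgb7*, *Itgal* and *Klf2*), against 3.66% and 3.85% of all genes. There 9 were below 0 and the median was -0.38. In IgM cells with this pair 0 passed 2-fold in either direction, 7 were below 0 and the median was -0.48. *Cxcr4*, the receptor of CXCL12, had means of 0.38 in WT and 0.55 in *Postn*-DTR switched cells (log2 ratio 0.48), and 0.45 and 0.51 in IgG3 cells with *Ighv1-11* and *Igkv8-16*. Of 9 genes that respond to glucocorticoids only *Ddit4* was higher and the median was -0.60. Of 4 interferon-stimulated genes *Zbp1* was higher and *Ifi27l2a* lower. All 8 MHC class I genes stayed within 2-fold (median -0.06), as did 82 ribosomal protein genes (0.26), and of 12 mitochondrial genes all were below 0 and *mt-Nd3* was lower (median -0.59).

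Markers of other cell types were measured in the same cells. The summed level of 4 neutrophil markers had means of 0.066 (WT) and 4.34 (*Postn*-DTR) UMIs per 10000 in switched cells. The 3 markers compared were all higher in *Postn*-DTR (median 4.37, and 4.32 in IgG3 cells with *Ighv1-11* and *Igkv8-16*). The median cell was at 0 in both libraries, and 14 of 74 WT and 47 of 188 *Postn*-DTR cells held any. The sum reached 10 or more in 5 *Postn*-DTR cells (highest 309) and in 0 WT cells (highest 0.776). Over all IgM plasma cells the median of these 3 markers was 0.225. In IgM cells with *Ighv1-11* and *Igkv8-16* it was -1.36, with 2 of the 3 below 0. *S100a8* was found in 11.8% of *Postn*-DTR T cells and 13.3% of switched cells. In switched cells *Lyz2*, a macrophage marker (log2 ratio 2.41), and *Dcn*, a stromal one (3.35), were higher in *Postn*-DTR too. *Dcn* was at -0.30 in IgG3 cells with *Ighv1-11* and *Igkv8-16*. The 5 T cell markers summed to means of 0.537 and 0.137, the 5 B cell markers to 4.72 and 1.77, and erythroid markers were at 0 in both. The medians of the B cell marker sum were closer, at 1.23 and 0.93. It reached 10 or more in 10 of 74 WT and 5 of 188 *Postn*-DTR cells. Whether these markers' cells had a part in the other differences was not tested.

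**Figure D5:**
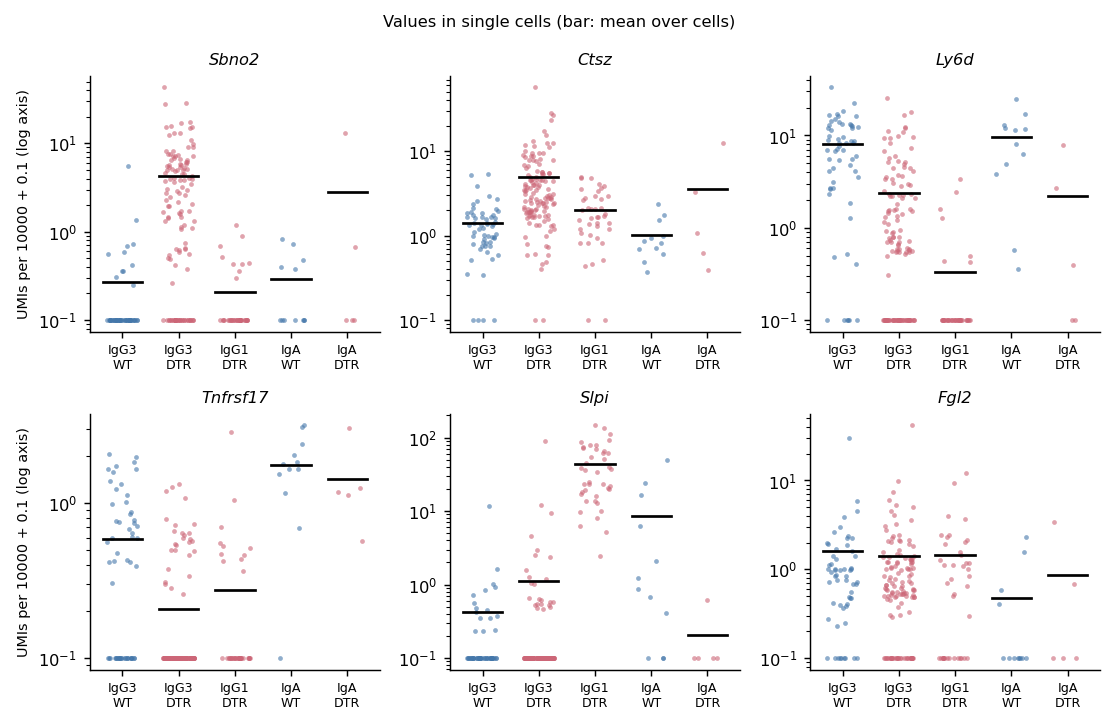
Values of 6 genes in single switched plasma cells (UMIs per 10000 with 0.1 added, log axis) for IgG3 cells of both libraries, IgG1 cells of *Postn*-DTR and IgA cells of both libraries, with a bar at the mean. *Slpi* is found in all 41 IgG1 cells, *Sbno2* in most *Postn*-DTR IgG3 cells but few WT ones, and *Tnfrsf17* in 11 of 12 WT and 5 of 5 *Postn*-DTR IgA cells.

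The IgG1 cells of *Postn*-DTR were set beside IgG3 cells of the same library, since WT had none, and these genes were ranked after their values had been seen. By 2-fold or more 91 genes (2.43%) were higher and 119 (3.18%) lower in the 41 IgG1 cells than in the 131 IgG3 cells. *Slpi*, a secreted inhibitor of neutrophil proteases, had a median of 34.0 (2.34 to 146) in IgG1 cells, all 41 of which held it, against 0 (0 to 88.8) in IgG3 cells with *Ighv1-11* and *Igkv8-16*, 21 of 119 of which did. Cycling IgG1 cells had a mean of 35.1, so that the high level was not limited to the non-cycling cells. *Slpi* was also found in 9 of 12 WT IgA cells (mean 8.39) but in 1 of 5 *Postn*-DTR IgA cells.

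Other genes were higher in IgG1 cells as well. *Cxcr3*, a receptor of interferon-induced chemokines, was found in 36 of 41 IgG1 cells (mean 1.04) and in 2 of 119 IgG3 cells with *Ighv1-11* and *Igkv8-16*. *Cd28*, a costimulatory receptor of T cells that plasma cells also carry, had means of 1.14 in IgG1 and 0.06 in IgG3 cells (log2 ratio 3.41). All 5 T cell markers were at 0 in the 41 IgG1 cells, while the 4 stromal markers summed to a mean of 5.01, carried by 2 cells with 10 or more UMIs per 10000. *Vpreb3*, a gene of B cell development, was found in 29 of the 39 IgG1 cells with *Ighv1-26* and *Igkv9-120* and in 10 of the 119 IgG3 cells. *Sfn*, the sigma member of the 14-3-3 proteins, had means of 1.49 and 0.19.

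Lower in IgG1 cells were genes that were high in the IgG3 cells. *Ly6c2*, which encodes the surface antigen Ly6C, had means of 1.48 in IgG1 and 17.7 in IgG3 cells (log2 ratio -3.54), and *Il5ra*, the receptor of interleukin-5 known from B1 cells, 0.0249 and 0.618 (-3.16). *Cox4i2*, a subunit of cytochrome oxidase, was found in 1 of 41 IgG1 cells and in 87 of 119 IgG3 cells with *Ighv1-11* and *Igkv8-16*. *Ly6d* was found in 7 of 41 IgG1 cells. *Ms4a1*, which encodes CD20, and *Ebf1*, a regulator of B cell identity, were lower too (-2.81 and -1.13). Over the B cell identity list 0 of 10 genes were higher and 3 lower (*Ms4a1*, *Ebf1* and *Bank1*), with 5 above and 5 below 0 and a median of -0.26. Of the secretory list 0 of 31 genes were higher and 3 lower (*Edem2*, *Sel1l* and *Ero1b*), against 2.43% and 3.18% of all genes. *Ly6c2* and *Ly6k* belong to a family with close copies, and how the authors' counting divided such reads was not tested.

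IgA cells were compared with IgG cells within each library, and a gene counted when it passed 2-fold in both. Higher in IgA were 27 genes (0.721%) and lower 104 (2.78%), and 40 and 66 when each library was centred on its median (-0.03 in WT and -0.37 in *Postn*-DTR). Only 12 and 5 IgA cells carry this comparison. The genes higher in IgA were led by *Tnfrsf17* (log2 ratios 1.71 in WT and 2.96 in *Postn*-DTR) and *Itgb7* (1.73 and 2.85), whose values are given above. *Gimap1*, *Gimap4* and *Gimap5*, GTPases of lymphocytes, were higher in both libraries (2.10 and 1.38, 1.495 and 1.89, 1.22 and 2.24), as were *Tmem176b* (2.47 and 1.40) and *Ptprcap*, a partner of CD45 (1.59 and 2.22). With cells thinned to 2000 UMIs, the mean of both libraries' log2 ratios was -0.17 for *Tnfrsf17*, -0.24 for *Ptprcap* and -0.86 for *Gimap1*. The median log2 ratio over all genes was then -0.42 in WT and -2.28 in *Postn*-DTR. *Ccr10*, the receptor that guides IgA plasma cells to mucosal surfaces, fell below the minimum of 100 UMIs but was found in 12 of 12 WT and 2 of 5 *Postn*-DTR IgA cells (means 1.35 and 0.16) and in 0 of 52 and 0 of 119 IgG3 cells with *Ighv1-11* and *Igkv8-16*.

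Genes lower in IgA cells included part of the secretory machinery. Of 31 genes of the secretory pathway and unfolded protein response 0 were higher and 9 lower in both libraries (*Hspa5*, *Hsp90b1*, *Pdia4*, *Sdf2l1*, *Manf*, *Creld2*, *Edem2*, *Sel1l* and *Ero1b*), and the median over the list was -0.82, against 0.721% and 2.78% of all genes and medians over all genes of -0.03 in WT and -0.37 in *Postn*-DTR. *Hspa5* had means of 10.5 in WT and 8.35 in *Postn*-DTR IgA cells, and of 28.8 and 37.4 in IgG3 cells with *Ighv1-11* and *Igkv8-16*. *Creld2*, a chaperone induced by stress of the endoplasmic reticulum, had a median of 2.21 (0.517 to 13.1) in WT IgA cells and of 14.9 (0 to 39.5) in those IgG3 cells. In *Postn*-DTR the medians were 5.73 (2.07 to 8.98) and 18.6 (2.98 to 100.4). The ranges overlapped in both libraries, and IgM cells with *Ighv11-2* and *Igkv14-126* were close to the IgA cells (means 3.36 and 4.14), whereas IgM cells with *Ighv1-11* and *Igkv8-16* were close to the IgG3 cells (16.1 and 18.2).

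Further genes were lower in IgA than in IgG cells. *Ly6c2* had means of 2.46 against 17.0 in WT and 1.91 against 13.8 in *Postn*-DTR (log2 ratios -2.76 and -2.82). *Pld4*, a lysosomal exonuclease (-2.89 and -3.17), and *Pon3*, a paraoxonase (-3.79 and -1.81), were lower too. *Ly6k* was at 0 in all 12 WT IgA cells, found in 1 of 5 *Postn*-DTR IgA cells, and had means of 3.94 and 3.41 in IgG3 cells with *Ighv1-11* and *Igkv8-16*. *Oosp1* had log2 ratios of -2.78 and -2.48.

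Switched cells were last compared with IgM plasma cells, the cells most like them. In both libraries 18 genes (0.481%) were higher and 16 (0.427%) lower by 2-fold in switched cells. Since the V pairs differ, IgG3 cells with *Ighv1-11* and *Igkv8-16* were also set beside IgM cells with the same pair, where 5 genes (0.134%) were higher and 12 (0.32%) lower. *Fgl2*, a fibrinogen-like protein with a secreted immune-regulating form, led the higher genes, with means of 1.28 in switched and 0.08 in IgM cells of WT and 1.22 and 0.27 in *Postn*-DTR (log2 ratios 3.31 and 1.98). It was found in 43 of 52 WT and 91 of 119 *Postn*-DTR IgG3 cells with *Ighv1-11* and *Igkv8-16*, at means of 1.64 and 1.37, against 0.30 and 0.53 in IgM cells with the same pair. IgG1 cells also held *Fgl2* (26 of 41 cells, mean 1.34).

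Of the remaining genes higher in switched cells, *Fads2* and its relative *Fads3* kept log2 ratios above 1 within the pair in both libraries (1.42 and 1.69 for *Fads2*, 2.02 and 1.28 for *Fads3*), as did *Pld4* (1.11 and 1.26). *Ada* (1.63 and 1.34) and *Ly6k* (2.32 and 1.13) had smaller ratios within the pair (1.58 and 0.72, 1.43 and 0.85). *Vpreb3* went from 1.20 and 1.96 to -0.62 and 0.41. The coat colour gene *a* was higher by 1.76 and 1.12 over all cells and by 1.14 and 0.03 within the pair. Of the secretory list only *Creld2* was higher (1.11 and 1.03), and the list's median of 0.42 over all cells was -0.04 within the pair.

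*Tnfrsf17* and *Il10* were lower over all switched cells and within the *Ighv1-11* and *Igkv8-16* pair, but not in the IgA cells of *Postn*-DTR, where means were 1.33 for *Tnfrsf17* and 1.03 for *Il10* against 0.72 and 0.86 in all IgM cells. *Tnfrsf17* had log2 ratios of -1.27 in WT and -1.89 in *Postn*-DTR, and of -1.99 and -2.67 within *Ighv1-11* and *Igkv8-16*, where its means were 0.43 and 0.09 in IgG3 cells and 1.85 and 0.86 in IgM cells. *Il10* had ratios of -1.72 and -1.68, and of -1.95 and -1.52 within the pair. *Serpina3g*, an inhibitor of lysosomal proteases (-1.21 and -2.61), and *Serpina3f* (-1.76 and -1.25) were also lower, and are members of a family with close copies. *Cd83* (-1.74 and -2.23), *Ptpn6*, the phosphatase SHP-1 (-1.60 and -1.08), *Atf5*, a stress transcription factor (-1.36 and -1.53), and *Selenop* (-1.22 and -1.38) completed the lower group with *Phlda1* (-1.90 and -1.31) and *Sft2d2* (-1.25 and -1.23). Of the B cell identity list 0 of 10 genes passed 2-fold in either direction in both libraries (median -0.08). Of the 16 genes lower over all switched cells, only 5 were also lower by 2-fold within the *Ighv1-11* and *Igkv8-16* pair.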

How the data were processed

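Single-cell RNA was measured in 1 WT and 1 *Postn*-DTR library of pooled omenta. The deposited values, made by the authors, are the natural log of 1 plus UMIs per 10000 of a cell. The submitters' processing notes name Cell Ranger 6.0.0 and mm10, while the study's methods name another version, and the labels and methods give different kits. Values were back-transformed and whole UMIs recovered (99.956% and 99.897% of values within 0.1). The members and gene lists were chosen with earlier results of these data known. Members came from the rule (Python 3.11.15, pandas 2.3.3). Doublets were called by Scrublet (scanpy 1.11.5, expected rate 0.06) and kept. A V pair was called clear with 3 or more UMIs and 2 times the next V gene. Genes needed 100 UMIs over switched cells, and immunoglobulin and rule genes were left out. Of 19960 genes 1060 symbols were filled from a name table, and 19932 were found in the annotation. Named genes were the 12 highest and 12 lowest between the libraries (10 for other comparisons) with the same sign in IgA and IgG cells or in both libraries. No cell held over 20% of a gene's UMIs among the cells compared, where a library had 20 or more. For switched against IgM, IgA against IgG and IgG1 against IgG3 cells this limit covered both kinds together. A single cell could thus hold more of the UMIs of its own kind, such as 1 IgA cell of those of the IgA cells. No test was possible with 1 library per group. Alternatives changed the limits of the rule, the denominator, scaling, added constant, minimum and depth.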

Additional observations from a re-analysis of the deposited data

How the results depend on the processing

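No paired analysis was possible because each group held 1 library, and for the same reason no replicate could be left out. Of the values that answer a comparison 96 stayed within their counting interval or 1.5 times their count and 39 moved, and of the values of single genes 572 stayed, 122 moved and 8 turned direction. With *Jchain* at 25 or more the *Postn*-DTR share of switched cells was 3.94% and their share of antibody-secreting cells 12.4%. With *Jchain* at 100 or more these were 1.97% and 7.31%, with a ratio to WT of 2.71. Requiring 80% of the heavy chain gave 0.668% in WT, and requiring none of the 4 cycling genes gave 0.495% and 2.14%, with IgA at 0.813% and lambda at 0 in *Postn*-DTR. Against cells other than other antibody-secreting cells the ratio was 5.35. The 92 genes higher in *Postn*-DTR became 161 from summed UMIs (89 of them shared), 61 centred, 141 and 27 with 0.01 and 0.2 added, 44 with 300 UMIs, 152 with no minimum, 559 thinned, 158 without the leading V pair and 137 in IgG3 cells of that pair. The 97 lower became 38 with 0.2 added, 41 with 300 UMIs, 313 with no minimum, 282 thinned, 147 with IgA and IgG weighted alike and 144 in IgG3 cells of the pair. The 27 higher in IgA became 11, 8, 74 and 110 with 0.2 added, 300 UMIs, no minimum and thinned, and the 104 lower became 32, 47, 207 and 1237 in the same order, 66 centred and 165 with 0.01 added. The 18 higher in switched than IgM cells became 6 with 0.2 added and 5 within the V pair, and the 16 lower became 4 with 0.2 added, 4 with 300 UMIs and 31 with no minimum. Thinning to 2000 UMIs turned *Dennd4a* to 0.50, and for IgA against IgG *Tnfrsf17* to -0.17, *Vpreb3* to -1.35, *Ptprcap* to -0.24, *AC102496.1* to -0.79 and *Gimap1* to -0.86, where 5 *Postn*-DTR IgA cells remained. The median log2 ratio of IgA over IgG cells over all genes was then -0.42 in WT and -2.28 in *Postn*-DTR, so these genes moved with the whole. IgG3 cells of the V pair turned *Cxcr3* to -0.37, and the same pair turned *Vpreb3* between switched and IgM cells to -0.10. The cause of these moves was not tested.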

Other observations

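B cells outside the antibody-secreting gate held switched cells as well. Of those with at least 2 UMIs of a heavy and of a light V gene, 1.71% led with a switched chain in WT (40 of 2338, 1.23 to 2.32%) and 2.80% in *Postn*-DTR (23 of 822, 1.78 to 4.17%), a ratio of 1.64 (0.985 to 2.71). *Ighg3* led in 0.770% (18) and 1.82% (15) of them, a ratio of 2.37 (1.20 to 4.68). Free *Ighg3* RNA was found in 7.09% of WT and 18.9% of *Postn*-DTR T cells, and whether it had a part here was not tested. *Ptprc*, the lymphocyte antigen CD45, was found in 85.1% of WT and 78.2% of *Postn*-DTR switched plasma cells, a ratio of 0.918 (0.813 to 1.04).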
